A study of Mus musculus with 24 samples.

Results

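LLC1 cells carrying a guide RNA against B2m (sgB2m) were compared with LLC1 cells carrying a non-targeting guide (sgNT). LLC1 is the Lewis lung carcinoma line of the mouse. The comparison used 6 of the 24 libraries of a study of 4 mouse tumour lines, 3 libraries per guide, chosen by the line and guide in their labels. A gene was tested when its log2 normalised count reached 3.5 in any 3 or more libraries of the 6, which held for 15323 of the 27398 genes listed for the line. B2m encodes beta-2-microglobulin, the light chain of MHC class I, and the study's title concerns tumours deficient in MHC class I. Per the labels, both groups were cultured in DMEM with serum, and their total RNA went into strand-specific libraries read from both ends. The labels do not say whether the edited cells were a clone or a pool, or whether the 3 libraries of a group came from separate cultures, so the p-values measure the spread between these libraries.

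Beta-2-microglobulin holds the heavy chain of MHC class I in its folded form and is needed for its transport to the cell surface, where it shows peptides to CD8 T cells and restrains natural killer cells. The gene groups that moved most uniformly here lie elsewhere. Ribosome biogenesis takes place in the nucleolus, where RNA polymerase I transcribes ribosomal RNA and a set of processing factors trims and modifies it. It is known to follow the growth state of a cell, and Myc is a known activator of many of its genes, as well as of nucleotide synthesis. Fatty acid and cholesterol synthesis are controlled together by the transcription factors SREBP-1 and SREBP-2, which respond to the sterol content of the endoplasmic reticulum (ER).

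The sgB2m libraries had 27394565 to 27928042 reads in genes and the sgNT libraries 26149961 to 28081447. The first principal component held 48.3% of the variance and separated the guides. Transcripts of the mitochondrial genome took 4.43% to 4.59% of the reads in sgB2m and 4.38% to 4.49% in sgNT. A gene was called when the adjusted p of limma's moderated test was under 0.05. By that rule 20.7% of the tested genes rose and 21.8% fell (42.4% in all), so that a call by itself was common. Log2 fold changes are given as sgB2m minus sgNT with their standard error, and normalised counts are compared between libraries for 1 gene at a time. The median absolute log2 fold change of the called genes was 0.37, and 74.7% of them changed by less than 0.58, which is under 1.5-fold. Rises of at least 2-fold were called in 2.17% of the genes and falls of that size in 2.05%. Complete separation of the sgB2m from the sgNT libraries was seen in 51.8% of the genes, and in each gene that is given below by library and is said to have risen or fallen. The median log2 fold change of all tested genes was 0.0092.

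The label of the line was checked against marker lists. Of 15 listed markers of alveolar epithelium, 7 were tested and 5 averaged 6 or more on the log2 scale, led by Etv5, Abca3 and Lpcat1, while the surfactant genes Sftpb and Sftpc were near 0. Of 12 tested fibroblast and pericyte markers, 7 reached that level, led by the collagen gene Col3a1 and the growth factor receptor Pdgfrb. Their summed normalised counts were 83753 to 85738 in sgB2m, against 38401 to 39442 in sgNT, with Col3a1 as the largest term. Summed T, B and NK cell markers were 16.7 to 34.4 in sgB2m and 29.5 to 43.5 in sgNT, with the CD3 genes and Ms4a1 without a row in the table. Those of squamous epithelium were 5.9 to 30.7 in sgB2m and 3.15 to 7.11 in sgNT. Other lists were higher. Summed myeloid markers were 722 to 740 in sgB2m and 705 to 924 in sgNT, led by Itgax, Cd68 and Cd14. Summed endothelial markers were 2096 to 2309 in sgB2m and 2300 to 2634 in sgNT, led by Eng and Flt1. Airway and neuroendocrine markers summed to 222 to 253 in sgB2m and 176 to 227 in sgNT. In bulk RNA, fewer cells that express a gene and less of its RNA per cell cannot be told apart.

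B2m checked the guide labels. It had 4993, 5180.3 and 4963 normalised counts in the sgB2m libraries, against 16771, 16459 and 16455 in the sgNT libraries. The difference was -1.71 ± 0.029 (log2, with its SE; adjusted p = 1.8e-14). The groups were far apart, and the transcript was lower but present in all 3 sgB2m libraries. Whether the RNA that remained was edited cannot be read from gene counts.

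Among called genes that did not overlap, averaged 6 or more (log2) in the higher group and were not clone-named or predicted genes, Klhl4, a member of the kelch-like family, had the largest rise, with 193, 153 and 201 normalised counts in the sgB2m libraries, against 10.2, 7.9 and 16.8 in the sgNT libraries (3.91 ± 0.29, adjusted p = 9.3e-08). Ighm, the constant region of the IgM heavy chain and a gene known from B cells, had 1097, 1137 and 1052 normalised counts in the sgB2m libraries, against 87.4, 102 and 106 in the sgNT libraries (3.47 ± 0.10, adjusted p = 7.87e-12). Every sgB2m library was far above every sgNT library for both genes, while the listed B cell markers were at or near 0. Aspn, which encodes the small leucine-rich proteoglycan asporin, had 118, 131 and 119 normalised counts in the sgB2m libraries, against 4.06, 16.8 and 18.9 in the sgNT libraries (3.34 ± 0.43, adjusted p = 1.88e-05). Adamts1, a secreted protease that cleaves versican and aggrecan, had 7761, 7833 and 7833 normalised counts in the sgB2m libraries, against 1993, 2023 and 2083 in the sgNT libraries (1.94 ± 0.036, adjusted p = 3.82e-14). The other highest rises were those of the orphan receptor Mrgprf (2.36 ± 0.33), the signal recognition particle RNAs Rn7s2 (2.33 ± 0.27) and Rn7s1 (2.32 ± 0.27), Casc1 (2.15 ± 0.36), the interferon-induced Ifit3 (2.11 ± 0.24), the cholesterol synthesis enzyme Hmgcs1 (2.05 ± 0.035) and the GTPase regulator Sgsm1 (1.97 ± 0.14), with adjusted p of at most 2.11e-04. Rn7s1 and Rn7s2 are near-identical copies, so their reads are uncertain between them. The bilirubin transferase Ugt1a1 (2.23 ± 0.54, adjusted p = 0.00373) shares exons with its neighbours and lost its call without the filter on low values (adjusted p = 0.0658) and without the intensity trend (0.075). Its value was 1.61 without sgNT replicate 1 and 3.02 without sgNT replicate 2. With a pseudocount of 8 the value of Klhl4 was 3.29 and that of Aspn 2.70, and Aspn was at 2.71 without sgNT replicate 1.

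The largest falls left little RNA of several secreted and surface proteins. Mmp13, collagenase 3, had 0, 0 and 3.83 normalised counts in the sgB2m libraries, against 147, 169 and 173 in the sgNT libraries (-6.60 ± 0.56, adjusted p = 3.34e-07). Only 4 reads remained in sgB2m, and the fitted value moved to -4.23 with a pseudocount of 8 and to -7.36 without sgB2m replicate 3. Mmp3, stromelysin 1, of the same cluster of genes on chromosome 9, had 6.94, 18.7 and 10.5 normalised counts in the sgB2m libraries, against 75.2, 70.1 and 83 in the sgNT libraries (-2.66 ± 0.35, adjusted p = 2.75e-05). The highest sgB2m library lay far below the lowest sgNT library in both genes. Vopp1 had 59.5, 54.1 and 78.4 normalised counts in the sgB2m libraries, against 614, 698 and 619 in the sgNT libraries (-3.32 ± 0.15, adjusted p = 4.35e-10). Grem1, a secreted inhibitor of bone morphogenetic proteins, had 139, 149.6 and 174 normalised counts in the sgB2m libraries, against 881, 822 and 836 in the sgNT libraries (-2.45 ± 0.10, adjusted p = 2.84e-10). The others were the tetraspanin partner Ptgfrn (-3.53 ± 0.32), the progenitor sialomucin Cd34 (-3.44 ± 0.33), the CXCR4 ligand Cxcl12 (-3.42 ± 0.32), the orphan receptor Gpr141 (-2.58 ± 0.28), the oestrogen-responsive Greb1 (-2.47 ± 0.27), the ectodysplasin receptor Eda2r (-2.45 ± 0.20), Disp2 of the dispatched family (-2.39 ± 0.26) and the mitochondrial ferredoxin Fdx1l (-2.14 ± 0.38), with adjusted p of at most 3.41e-04. The value of Cxcl12 was -2.74 with a pseudocount of 8.

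**Figure D1:**
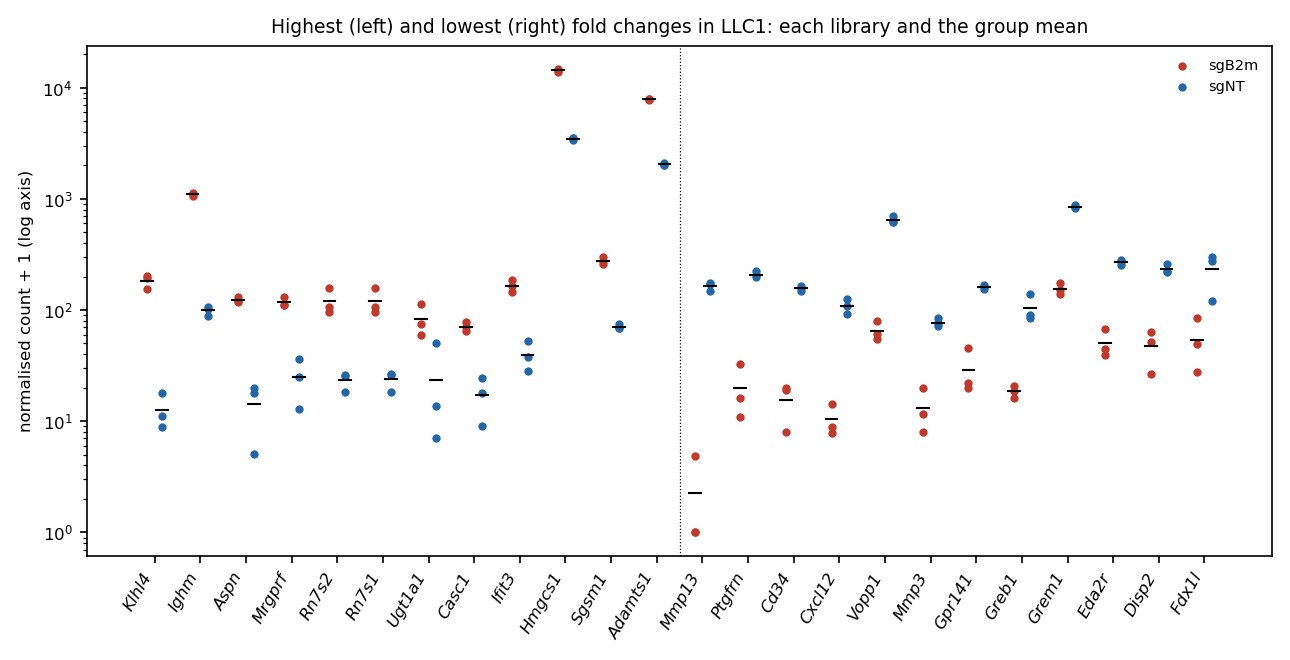
Normalised count plus 1 on a log axis for the 12 highest and 12 lowest fold changes, with points for each sgB2m library (left of each gene, red) and sgNT library (right, blue) and a bar for the group mean. The sgB2m points of Mmp13 are at 0, 0 and 3.83 normalised counts, against 147 to 173 in sgNT.

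Of the called genes, 5 had no reads in any sgB2m library and 2 had none in any sgNT library. They are named because of that count. The actin regulator Wasf3 had 129 reads in sgNT and was at least 15-fold lower in sgB2m, taking 3 reads per library as the floor. The transcription factor Mef2c (82 reads in sgNT) was at least 9.45-fold lower and the receptor Tnfrsf19 (45 reads) at least 5.17-fold. Tenascin C, Tnc, a matrix protein, had 43 reads in sgNT. The predicted gene Gm10800 had 47 reads in sgNT. In the other direction, E130102H24Rik, a clone-named gene, had 256 reads in sgB2m and none in sgNT, and was at least 27.4-fold higher. The remaining gene has no symbol. These bounds cover counting error only.

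The start of Mmp13 and that of Mmp3 are shown because both genes fell together and both are known to respond to the AP-1 factors of the Fos and Jun family. The windows are 100 bases upstream of the start, from RefSeq on GRCm38.p6, plus strand, at chr9:7272414-7272513 and chr9:7445722-7445821, written 5′ to 3′ with the AP-1 element TGANTCA in capitals.
Mmp13: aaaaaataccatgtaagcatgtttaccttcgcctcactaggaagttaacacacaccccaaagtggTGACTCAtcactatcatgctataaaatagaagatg
Mmp3: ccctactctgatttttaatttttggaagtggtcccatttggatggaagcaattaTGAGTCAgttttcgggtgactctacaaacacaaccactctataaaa
Searched on both strands of windows from 250 bases before to 50 bases after each start, TGANTCA was present in 7.81% of all promoter windows. It was in 2 of the 10 windows of matrix metalloproteinases and their inhibitors, which are the 2 shown, and in 5.24% of those of tested genes. In the other lists searched it was in 0% (ribosome biogenesis) to 20.6% (type I interferon response) of the windows. Its share was 5.37% among windows of genes that fell and 5.08% among those of genes that rose. A match is a description of letters, not of a bound site.

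Most genes of ribosome biogenesis and RNA polymerase I fell. Of 50 tested members 44 fell and 3 rose, against 21.8% and 20.7% of all tested genes, and the median log2 fold change was -0.57, against 0.0092 over all genes. Ncl, which encodes nucleolin, the abundant RNA-binding protein of the nucleolus, had 56575, 57519 and 55208 normalised counts in the sgB2m libraries, against 103093, 102811 and 105358 in the sgNT libraries (-0.88 ± 0.021, adjusted p = 5.32e-13). Wdr43, of the small subunit processome, had 6619, 6739 and 6530.1 normalised counts in the sgB2m libraries, against 12524, 12901 and 12914 in the sgNT libraries (-0.95 ± 0.029, adjusted p = 8.94e-12). In both genes the sgB2m libraries lay close together and well below the sgNT libraries. Heatr1, another processome protein that also serves RNA polymerase I, fell by a similar amount with 2334, 2270.3 and 2231 normalised counts in the sgB2m libraries, against 4219, 4359 and 4183 in the sgNT libraries (-0.90 ± 0.04, adjusted p = 3.97e-10). Nhp2, of the snoRNA particles that guide pseudouridine formation, was less even, with 615, 766 and 1112 normalised counts in the sgB2m libraries, against 1597, 1614 and 1532 in the sgNT libraries (-0.97 ± 0.14, adjusted p = 7.89e-05). Bysl, needed for small subunits, fell (-0.89 ± 0.063), as did the snoRNA particle proteins Nop58 (-0.84 ± 0.026) and Nop56 (-0.83 ± 0.029), the helicase Ddx21 (-0.81 ± 0.029) and the polymerase subunits Polr1b (-0.66 ± 0.042) and Polr1a (-0.49 ± 0.035), with adjusted p of at most 7.85e-08. The 3 members that rose were Utp3 (0.51 ± 0.057), Rrp1 (0.29 ± 0.035) and the shared polymerase subunit Polr1d (0.16 ± 0.048), with adjusted p of at most 0.0169. Polr1d lost its call without the intensity trend (0.0666), without sgB2m replicate 2 (0.0768) and without sgNT replicate 1 (0.0732). Ubtf, the factor that opens ribosomal DNA for polymerase I, was not called, with 5054, 4872 and 5005 normalised counts in the sgB2m libraries, against 5162, 5175 and 5533 in the sgNT libraries (-0.087 ± 0.037, adjusted p = 0.0751). Members named here other than Nhp2, Wdr43, Heatr1, Bysl and Ncl were picked after their values were seen.

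**Figure D2:**
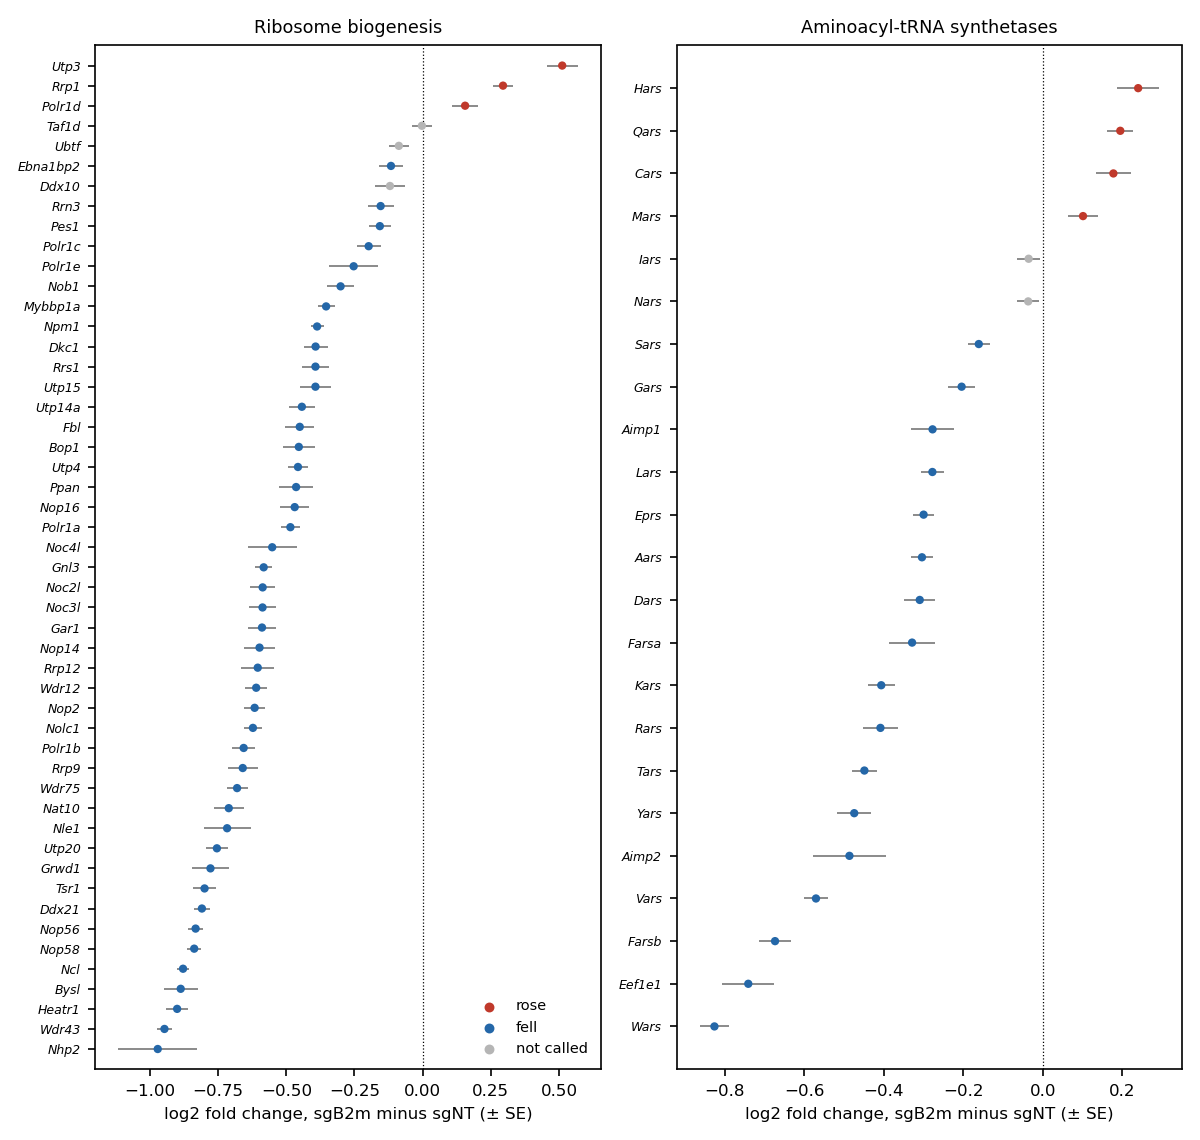
Log2 fold change (sgB2m minus sgNT, ± SE) of every tested gene of ribosome biogenesis and RNA polymerase I (left) and of the cytosolic aminoacyl-tRNA synthetases with their complex proteins (right). Red marks genes that rose, blue genes that fell and grey genes not called; 44 of 50 and 17 of 23 fell.

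Upstream bases of Nop2, a ribosomal RNA methyltransferase (-0.62 ± 0.038, adjusted p = 1.35e-08), and of Rrn3, the polymerase I initiation factor (-0.15 ± 0.048, adjusted p = 0.018), are shown because they hold the E box CACGTG, the letters known to be bound by Myc and related factors. Rrn3 lost its call without the intensity trend (0.0677) and without sgNT replicate 1 (0.0943). The windows, from RefSeq on GRCm38.p6, plus strand, are chr6:125131776-125131875 and chr16:13780599-13780698, with the E box in capitals.
Nop2: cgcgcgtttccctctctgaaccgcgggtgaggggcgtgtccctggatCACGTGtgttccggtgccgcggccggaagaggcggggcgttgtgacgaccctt
Rrn3: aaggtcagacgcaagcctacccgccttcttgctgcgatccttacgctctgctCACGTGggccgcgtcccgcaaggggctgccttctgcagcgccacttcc
The E box was found in 10 of 53 windows of the ribosome biogenesis genes (18.9%), against 7.15% of all promoter windows and 9.85% of those of tested genes. It was in 12.9% of the windows of genes that fell and in 8.16% of those of genes that rose. The Ets element CCGGAAGT was in 26.4% of the ribosome biogenesis windows, against 8.04% of those of tested genes. Myc fell, with 10291, 9351 and 10025 normalised counts in the sgB2m libraries, against 23822, 24124 and 22289 in the sgNT libraries (-1.24 ± 0.038, adjusted p = 7.87e-12). Whether the fall of Myc had a part in those of ribosome biogenesis was not tested.

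Most genes of tRNA charging and translation fell too, with medians nearer to 0. Of the cytosolic aminoacyl-tRNA synthetases and the proteins of their complex, which charge tRNAs with amino acids, 17 of 23 fell and 4 rose, with a median of -0.30. The tryptophan enzyme Wars had 3747, 3566 and 3500.4 normalised counts in the sgB2m libraries, against 6433, 6499.9 and 6236 in the sgNT libraries (-0.83 ± 0.037, adjusted p = 5.11e-10). The complex protein Eef1e1 (-0.74 ± 0.065), the phenylalanine enzyme subunit Farsb (-0.67 ± 0.04) and the valine enzyme Vars (-0.57 ± 0.03) followed (adjusted p at most 5.12e-07). Of the translation initiation and elongation factors 40 of 59 fell and 4 rose, with a median of -0.20. The start codon selection factor Eif1 had 5413, 5130.1 and 5926 normalised counts in the sgB2m libraries, against 8707, 8907 and 8642 in the sgNT libraries (-0.68 ± 0.044), and Eif6, which keeps ribosomal subunits apart, fell too (-0.65 ± 0.055), with adjusted p of at most 3.31e-07. The member with the largest rise, Eef1akmt1 (0.70 ± 0.14, adjusted p = 7.69e-04), is a methyltransferase of an elongation factor and not a factor itself. Of the cytosolic ribosomal proteins 34 of 83 fell and 9 rose, with a median of -0.057. Rps10, of the small subunit, was uneven among the sgB2m libraries, with 12459, 14613 and 19528 normalised counts in the sgB2m libraries, against 24293, 23869.6 and 22103 in the sgNT libraries (-0.62 ± 0.11, adjusted p = 2.97e-04). Ribosomal protein genes have near-identical pseudogenes, so their reads are uncertain.

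Several host RNAs of small nucleolar RNAs fell as well. Of the long noncoding RNAs of known name 11 of 21 fell and 3 rose, with a median of -0.21. Snhg5, whose introns hold small nucleolar RNAs, had 1833, 1948 and 1804 normalised counts in the sgB2m libraries, against 4804, 4873 and 4849 in the sgNT libraries (-1.38 ± 0.042, adjusted p = 7.87e-12). Snhg12 (-1.04 ± 0.062), Snhg1 (-0.84 ± 0.039) and Gas5 (-0.63 ± 0.024) are hosts of the same kind and also fell, with adjusted p of at most 9.76e-09. Trp53cor1, a p53-induced RNA, fell as well (-0.74 ± 0.14, adjusted p = 8.38e-04). The nuclear RNAs Malat1 (0.51 ± 0.051) and Neat1 (0.22 ± 0.025), which were picked after their values were seen, rose (adjusted p at most 5.13e-06).

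Genes of nucleotide and one-carbon metabolism mostly fell. In purine and pyrimidine synthesis 24 of 31 fell and 5 rose, with a median of -0.25. Prps1, which makes the activated ribose that all nucleotides start from, had 2019, 2171 and 1952 normalised counts in the sgB2m libraries, against 3254, 3025 and 3196 in the sgNT libraries (-0.63 ± 0.05, adjusted p = 1.75e-07). The ribonucleotide reductase subunit Rrm2b (-0.66 ± 0.06), the nucleoside diphosphate kinase Nme1 (-0.55 ± 0.053) and the pyrimidine enzyme Dhodh (-0.55 ± 0.071) fell by similar amounts (adjusted p at most 2.11e-05). Of the serine, glycine and folate enzymes 15 of 24 fell and 4 rose, with a median of -0.20. Mthfd2, the mitochondrial folate dehydrogenase, had 1619.7, 1769 and 1619 normalised counts in the sgB2m libraries, against 3111, 3148 and 3189 in the sgNT libraries (-0.92 ± 0.047, adjusted p = 2.35e-09). Mtrr, which reactivates methionine synthase, also fell (-0.60 ± 0.062, adjusted p = 2.29e-06). The exception among the largest was Aldh1l1, the cytosolic formyl-folate dehydrogenase that takes one-carbon units out of the pool. It had 278, 259.8 and 182 normalised counts in the sgB2m libraries, against 55.9, 92.9 and 74.6 in the sgNT libraries (1.68 ± 0.21, adjusted p = 1.46e-05), with all sgB2m libraries above all sgNT libraries.

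Most amino acid transporters fell, as did most genes of the ATF4 stress response, which is known to act on several of them. Of 25 tested transporters 15 fell and 2 rose, with a median of -0.36. Slc7a11, the cystine importer, had 1907, 1983 and 1955 normalised counts in the sgB2m libraries, against 4138, 3973 and 3724 in the sgNT libraries (-1.02 ± 0.046, adjusted p = 5.45e-10). The glutamate transporter Slc1a3 (-1.71 ± 0.26) and the arginine transporter Slc7a3 (-0.84 ± 0.074) fell (adjusted p at most 1.05e-04). Slc43a1, a carrier of large neutral amino acids (-0.78 ± 0.28, adjusted p = 0.0338), lost its call without the filter (0.0768) and without sgB2m replicate 2, sgB2m replicate 3, sgNT replicate 1 or sgNT replicate 2, with adjusted p of 0.0657 to 0.144. In the ATF4 response 25 of 33 members fell and 1 rose, with a median of -0.49. Cdsn, the corneodesmosin gene, had the largest fall in it, with 93.2, 83.6 and 80.4 normalised counts in the sgB2m libraries, against 273, 296 and 297 in the sgNT libraries (-1.74 ± 0.14, adjusted p = 1.73e-07). The glutathione-degrading Chac1 had 327, 299 and 352 normalised counts in the sgB2m libraries, against 983, 1051 and 964 in the sgNT libraries (-1.61 ± 0.083). The stress phosphatase subunit Ppp1r15a (-1.22 ± 0.054) and the repressor Atf3 (-1.09 ± 0.082) fell too, with adjusted p of at most 1.12e-07 for the 3.

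The upstream windows of Chac1, Atf3 and Slc7a11 are shown because the composite C/EBP-ATF element, through which ATF4 is known to act, lies in each. The windows are from RefSeq on GRCm38.p6, at chr2:119351002-119351101 on the plus strand and at chr1:191183391-191183490 and chr3:50443614-50443713 on the minus strand. Matches to TGATGNAAN on either strand are in capitals.
Chac1: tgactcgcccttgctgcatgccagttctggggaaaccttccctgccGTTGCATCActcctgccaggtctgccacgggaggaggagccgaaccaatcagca
Atf3: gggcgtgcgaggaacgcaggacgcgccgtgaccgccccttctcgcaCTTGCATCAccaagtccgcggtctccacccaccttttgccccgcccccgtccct
Slc7a11: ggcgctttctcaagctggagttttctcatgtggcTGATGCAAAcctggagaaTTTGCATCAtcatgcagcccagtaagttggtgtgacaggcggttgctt
The element was in 30.6% of 36 windows of the ATF4 list and in 5 of 16 windows of aminoacyl-tRNA synthetases. All promoter windows had it in 3.95% and those of tested genes in 2.17%. It was in 2.29% of the windows of genes that fell and in 1.8% of those of genes that rose.

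Genes of the secretory pathway split between folding and transport. Of the ER chaperones and ER-associated degradation genes 16 of 30 fell and 3 rose, with a median of -0.12. Hspa5, the main Hsp70 chaperone of the ER, had 30079.9, 30651 and 31346 normalised counts in the sgB2m libraries, against 52060, 54640.3 and 52409.5 in the sgNT libraries (-0.79 ± 0.025, adjusted p = 1.1e-11). Ern1, the sensor IRE1, had 3229.5, 2792 and 2835 normalised counts in the sgB2m libraries, against 4989, 4938 and 4653 in the sgNT libraries (-0.72 ± 0.053). The ER degradation component Herpud1 (-0.66 ± 0.051) and the chaperone Hyou1 (-0.51 ± 0.033) also fell, with adjusted p of at most 1.32e-07 for the 3. In the coats and ER-to-Golgi transport list 23 of 38 members rose and 6 fell, with a median of 0.16. The coatomer subunit Cope had 2078, 1938 and 1823 normalised counts in the sgB2m libraries, against 1468, 1336 and 1414 in the sgNT libraries (0.47 ± 0.059, adjusted p = 1.64e-05). The Golgi matrix protein Golga2 (0.44 ± 0.047), the transcription factor Creb3, which is known to act on the Golgi (0.41 ± 0.10), and the coatomer subunit Copz1 (0.36 ± 0.05) rose, with adjusted p of at most 0.00336.

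The ER stress element, made of CCAAT and CCACG at a fixed spacing and known to be bound by NF-Y and ATF6, is shown upstream of Hspa5 and of the lectin chaperone Canx (-0.20 ± 0.029, adjusted p = 6.84e-05). The windows are from RefSeq on GRCm38.p6, at chr2:34771984-34772083 on the plus strand and chr11:50325760-50325859 on the minus strand, with the element in capitals.
Hspa5: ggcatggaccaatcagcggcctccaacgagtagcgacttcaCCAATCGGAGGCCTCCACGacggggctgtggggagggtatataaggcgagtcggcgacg
Canx: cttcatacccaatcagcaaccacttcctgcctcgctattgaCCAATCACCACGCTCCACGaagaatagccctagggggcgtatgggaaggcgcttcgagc
It was in 8 of 27 windows of the ER chaperone list and in 0.119% of all promoter windows. Its share was 0.254% among windows of genes that fell and 0.0983% among those of genes that rose.

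Most genes of DNA replication fell, while more genes of mitosis rose than fell. Of 49 replication genes 33 fell and 5 rose, with a median of -0.23. Cdt1, which licenses replication origins, had 1279, 1264 and 1541 normalised counts in the sgB2m libraries, against 2888, 3058 and 2736 in the sgNT libraries (-1.09 ± 0.07, adjusted p = 2.24e-08). The origin protein Orc2 had 1987, 2178 and 2122 normalised counts in the sgB2m libraries, against 3690.1, 3568 and 3441 in the sgNT libraries (-0.77 ± 0.047). The cyclin Ccne2 (-0.78 ± 0.068) and the helicase subunit Mcm2 (-0.70 ± 0.04) fell, with adjusted p of at most 4.81e-07 for the 3. Geminin, Gmnn, the inhibitor of Cdt1, rose (0.46 ± 0.08, adjusted p = 3.11e-04), and was picked after its values were seen. Of 58 mitosis genes 30 rose and 8 fell, with a median of 0.11. Mki67, the proliferation antigen that coats mitotic chromosomes, had 18289, 18122 and 17850.2 normalised counts in the sgB2m libraries, against 10854, 10592 and 10422 in the sgNT libraries (0.77 ± 0.027, adjusted p = 3.3e-11). The cyclin Ccnb2 had 3671, 3617 and 3344 normalised counts in the sgB2m libraries, against 2170.1, 2200.2 and 2109 in the sgNT libraries (0.71 ± 0.046), and the condensin subunit Ncapd2 rose (0.57 ± 0.032), with adjusted p of at most 2.08e-08. Mybl2, a transcription factor of the cell cycle, fell (-0.58 ± 0.056, adjusted p = 1.53e-06). The cyclin Ccnb1, with 4331, 4397 and 4078 normalised counts in the sgB2m libraries, against 4368, 4407 and 4429 in the sgNT libraries, overlapped between the groups and was not called (-0.045 ± 0.038, adjusted p = 0.372). No cell counts or growth rates were analysed here.

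**Figure D3:**
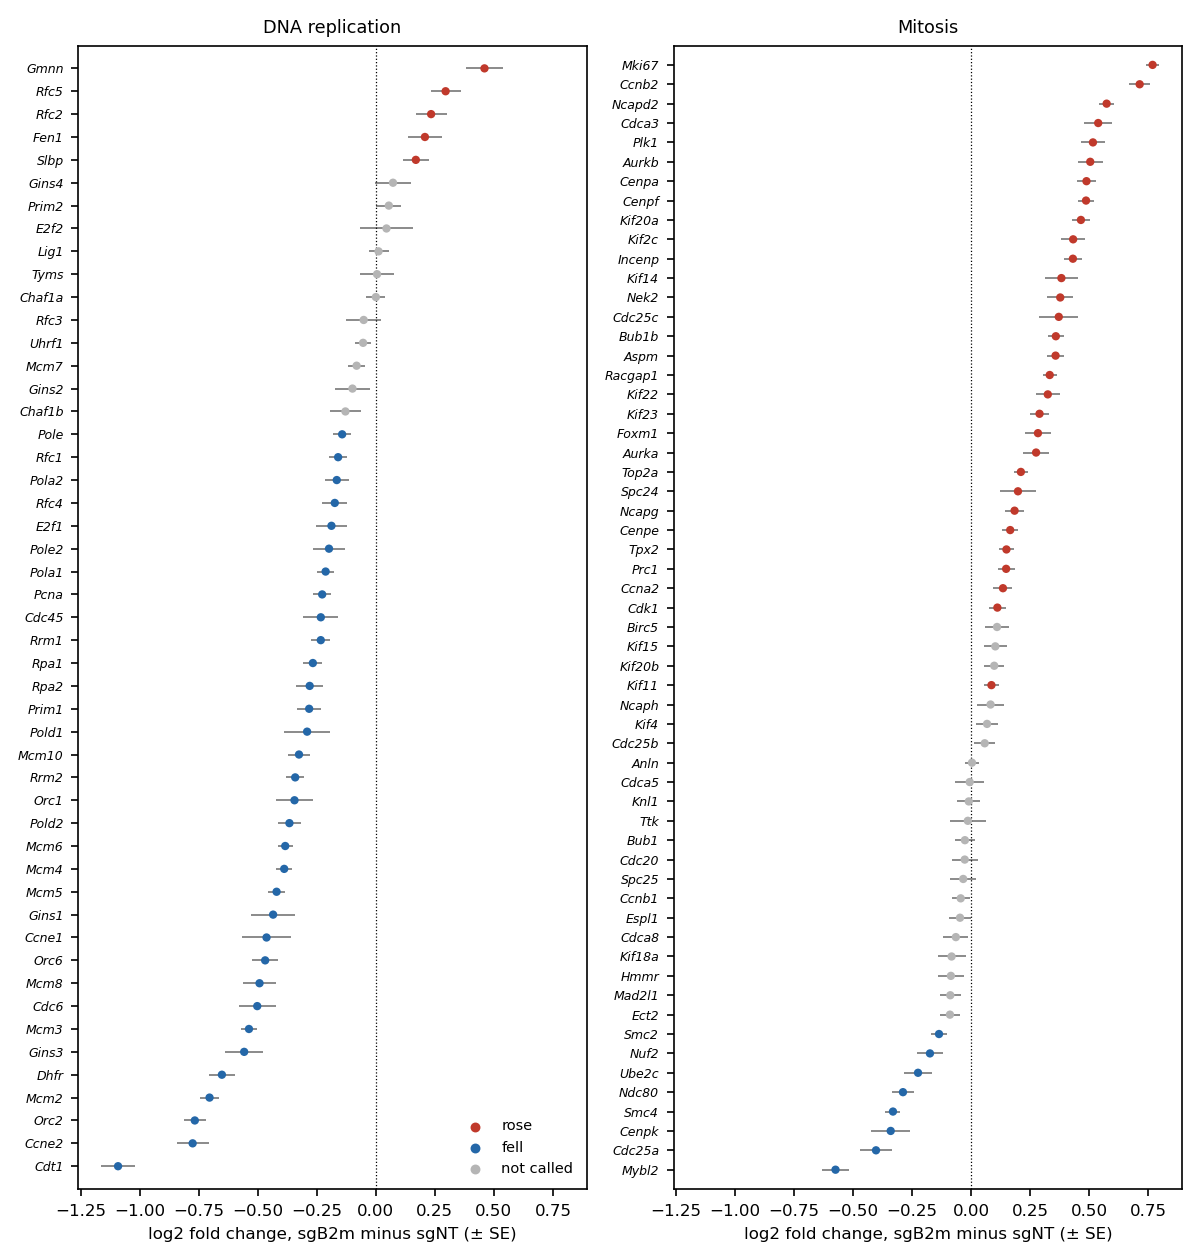
Log2 fold change (sgB2m minus sgNT, ± SE) of every tested gene of DNA replication (left) and mitosis (right) on the same axis, with red for genes that rose, blue for genes that fell and grey for genes not called. Replication genes lie mostly left of 0 (33 of 49 fell) and mitosis genes more often right of it (30 of 58 rose).

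Most genes of fatty acid synthesis rose, as did those of cholesterol synthesis. Of the genes of fatty acid synthesis and desaturation 18 of 26 rose and 2 fell, with a median of 0.50. Scd2, a desaturase that puts a double bond into saturated acyl chains, had 74807, 73527 and 71921 normalised counts in the sgB2m libraries, against 25884, 25299 and 25249 in the sgNT libraries (1.53 ± 0.022, adjusted p = 6.96e-15). Its relative Scd1 had 19700.4, 19072 and 18561 normalised counts in the sgB2m libraries, against 9628, 9571 and 9779 in the sgNT libraries (0.98 ± 0.028, adjusted p = 4.64e-12). In both the sgB2m libraries were far above the sgNT libraries with little spread. The elongase Elovl6 had 5508, 5407 and 5328 normalised counts in the sgB2m libraries, against 2553, 2476 and 2375 in the sgNT libraries (1.13 ± 0.039). The desaturase Fads2 rose (1.10 ± 0.045), and so did the synthase Fasn (0.95 ± 0.034) and the regulator Srebf1 (0.90 ± 0.059), which were picked after their values were seen (adjusted p at most 2.53e-08). The weakly expressed elongase Elovl7 went the other way (-1.17 ± 0.33, adjusted p = 0.0104) and lost its call without sgNT replicate 2 (0.0746). Of the cholesterol synthesis genes 20 of 21 rose, with a median of 1.44. Fdps, the farnesyl diphosphate synthase, had 7115, 7381 and 7346 normalised counts in the sgB2m libraries, against 2000.5, 2079.7 and 2002 in the sgNT libraries (1.84 ± 0.037, adjusted p = 1.09e-13). Of the phospholipid and sphingolipid enzymes 12 of 32 rose and 7 fell, with a median of 0.048.

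In fatty acid oxidation and the respiratory chain more genes rose than fell, most of them by small amounts. Of the genes of peroxisomal and mitochondrial oxidation 14 of 28 rose and 4 fell, with a median of 0.17. Hacl1, a peroxisomal lyase, had 591, 539 and 534 normalised counts in the sgB2m libraries, against 235, 242 and 316 in the sgNT libraries (1.08 ± 0.12, adjusted p = 3.75e-06). Among members that fell were Pdk4, the kinase that inactivates pyruvate dehydrogenase (-1.62 ± 0.32), and the thioesterase Acot2 (-0.75 ± 0.066), with adjusted p of at most 9.46e-04. The peroxisomal Ehhadh (-1.52 ± 0.44, adjusted p = 0.0124) lost its call without the filter (0.0698), without the trend (0.06) and without sgNT replicate 2 (0.0658). Among the nuclear genes of the respiratory chain 34 of 79 rose and 7 fell, with a median of 0.15, while 5 of the 13 transcripts of the mitochondrial genome rose and 4 fell.

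Genes of the hypoxia response, glycolysis and detoxification also rose more often than they fell. Of the hypoxia response and glycolysis genes 18 of 36 rose and 7 fell, with a median of 0.16. The vasoactive peptide Adm had 1728, 1865 and 1825 normalised counts in the sgB2m libraries, against 793, 792 and 814 in the sgNT libraries (1.17 ± 0.056, adjusted p = 8.97e-10), and the mitophagy receptor Bnip3 rose (0.69 ± 0.059, adjusted p = 3.91e-07). The carbonic anhydrase Car12 fell (-1.52 ± 0.24, adjusted p = 1.21e-04). The lactate exporter Slc16a3 fell too (-1.33 ± 0.37, adjusted p = 0.00955), but at a log2 fold change of -0.86 without sgB2m replicate 2, and it lost its call without the filter (0.0831) and without the trend (0.082). Of the glutathione transferases and aldehyde dehydrogenases 18 of 29 rose and 5 fell, with a median of 0.35. The proline catabolic enzyme Aldh4a1 had 152, 178 and 185 normalised counts in the sgB2m libraries, against 58.9, 51.4 and 44.1 in the sgNT libraries (1.72 ± 0.19, adjusted p = 3.77e-06). Aldh3b1, which oxidises lipid aldehydes (0.99 ± 0.10), and the transferase Gstt1 (0.94 ± 0.12) rose, with adjusted p of at most 2.24e-05. Reads can be uncertain between the near-identical members of the transferase families.

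Growth factor ligands and the early genes that such factors are known to induce fell more often than they rose. Of the EGF, FGF, PDGF and VEGF family ligands 11 of 28 fell and 3 rose, with a median of -0.39. Over all tested genes 21.8% fell and 20.7% rose. Areg, a ligand of the EGF receptor, had 71.4, 89.6 and 67.9 normalised counts in the sgB2m libraries, against 162, 226 and 197 in the sgNT libraries (-1.34 ± 0.18, adjusted p = 3.01e-05). The list also holds the neurotrophic factor Gdnf, which is of none of these families. Gdnf had 103, 71.8 and 67.9 normalised counts in the sgB2m libraries, against 271, 245 and 286 in the sgNT libraries (-1.73 ± 0.17, adjusted p = 1.76e-06). Betacellulin, Btc, was weakly expressed and fell (-1.50 ± 0.41, adjusted p = 0.00815), and Pdgfb (-1.44 ± 0.38, adjusted p = 0.00735) lost its call without the filter (0.0522) and without sgNT replicate 3 (0.0515). The list of ERK pathway feedback genes holds genes known to be induced by that pathway, several of which restrain it. Of these 25 genes 14 fell and 8 rose, with a median of -0.26. Both shares, 56% and 32%, were above those of all tested genes. The phosphatase Dusp4 had 1340.2, 1410.2 and 1598 normalised counts in the sgB2m libraries, against 3398, 3523 and 3254 in the sgNT libraries (-1.23 ± 0.061, adjusted p = 1.34e-09), and Phlda1 (-0.97 ± 0.083) and the phosphatase Dusp2 (-0.92 ± 0.16) fell, with adjusted p of at most 2.52e-04. The cytokine Il11 (-1.46 ± 0.41, adjusted p = 0.0105) had a value of -0.94 without sgB2m replicate 2 and lost its call without the filter (0.0656) and without the trend (0.0581). In contrast, the ERK phosphatase Dusp6 rose, with 6124, 6267 and 6538 normalised counts in the sgB2m libraries, against 4956, 4882 and 5024 in the sgNT libraries (0.35 ± 0.035, adjusted p = 1.9e-06), a gene picked after its values were seen. Of the immediate early genes 18 of 31 fell and 3 rose, with a median of -0.41. The transcription factor Egr1 had 927, 985 and 836 normalised counts in the sgB2m libraries, against 2207, 2228 and 2069 in the sgNT libraries (-1.24 ± 0.064, adjusted p = 2.28e-09). The AP-1 gene Fosl1 had 567, 483 and 806 normalised counts in the sgB2m libraries, against 1309.6, 1326 and 1191 in the sgNT libraries (-1.07 ± 0.13, adjusted p = 1.52e-05), with more spread in sgB2m than in sgNT. Fos, another AP-1 gene, rose, with 1609, 1442 and 1474 normalised counts in the sgB2m libraries, against 819.9, 942 and 923 in the sgNT libraries (0.75 ± 0.068, adjusted p = 6.47e-07), and was picked after its values were seen.

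Targets of YAP and p53 and genes of the clock fell more often than they rose. Of the YAP and TEAD targets 15 of 25 fell and 5 rose, with a median of -0.23. Over all tested genes 21.8% fell and 20.7% rose. The share of YAP and TEAD targets that rose, 20%, was near that of all genes. The matricellular protein Cyr61 had 2779, 2924 and 2974 normalised counts in the sgB2m libraries, against 4260, 4447 and 4159.7 in the sgNT libraries (-0.57 ± 0.042), and Gadd45b (-0.72 ± 0.17) and the AMP-hydrolysing Nt5e (-0.72 ± 0.14) fell, with adjusted p of at most 0.00359. Myoferlin, Myof, a membrane repair protein, rose (0.54 ± 0.025, adjusted p = 6.98e-10), and the classical target Ctgf was not called (0.15 ± 0.19, adjusted p = 0.557). Of the p53 targets 17 of 30 fell and 5 rose, with a median of -0.25. The death gene Pmaip1 had 29.7, 22.6 and 42.1 normalised counts in the sgB2m libraries, against 143, 123 and 112 in the sgNT libraries (-2.01 ± 0.25), and Eda2r, the nuclease Aen (-1.15 ± 0.07) and the death gene Bbc3 (-0.85 ± 0.18) fell (adjusted p at most 0.00177). Of the circadian clock genes 10 of 19 fell and 2 rose, with a median of -0.18. The clock repressor Nr1d1 had 399, 332 and 353 normalised counts in the sgB2m libraries, against 611, 644 and 631 in the sgNT libraries (-0.80 ± 0.09) and the clock kinase Csnk1e fell (-0.71 ± 0.043), whereas the output factor Dbp (0.91 ± 0.18) and Per3 (0.57 ± 0.085) rose, with adjusted p of at most 8.71e-04.

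**Figure D4:**
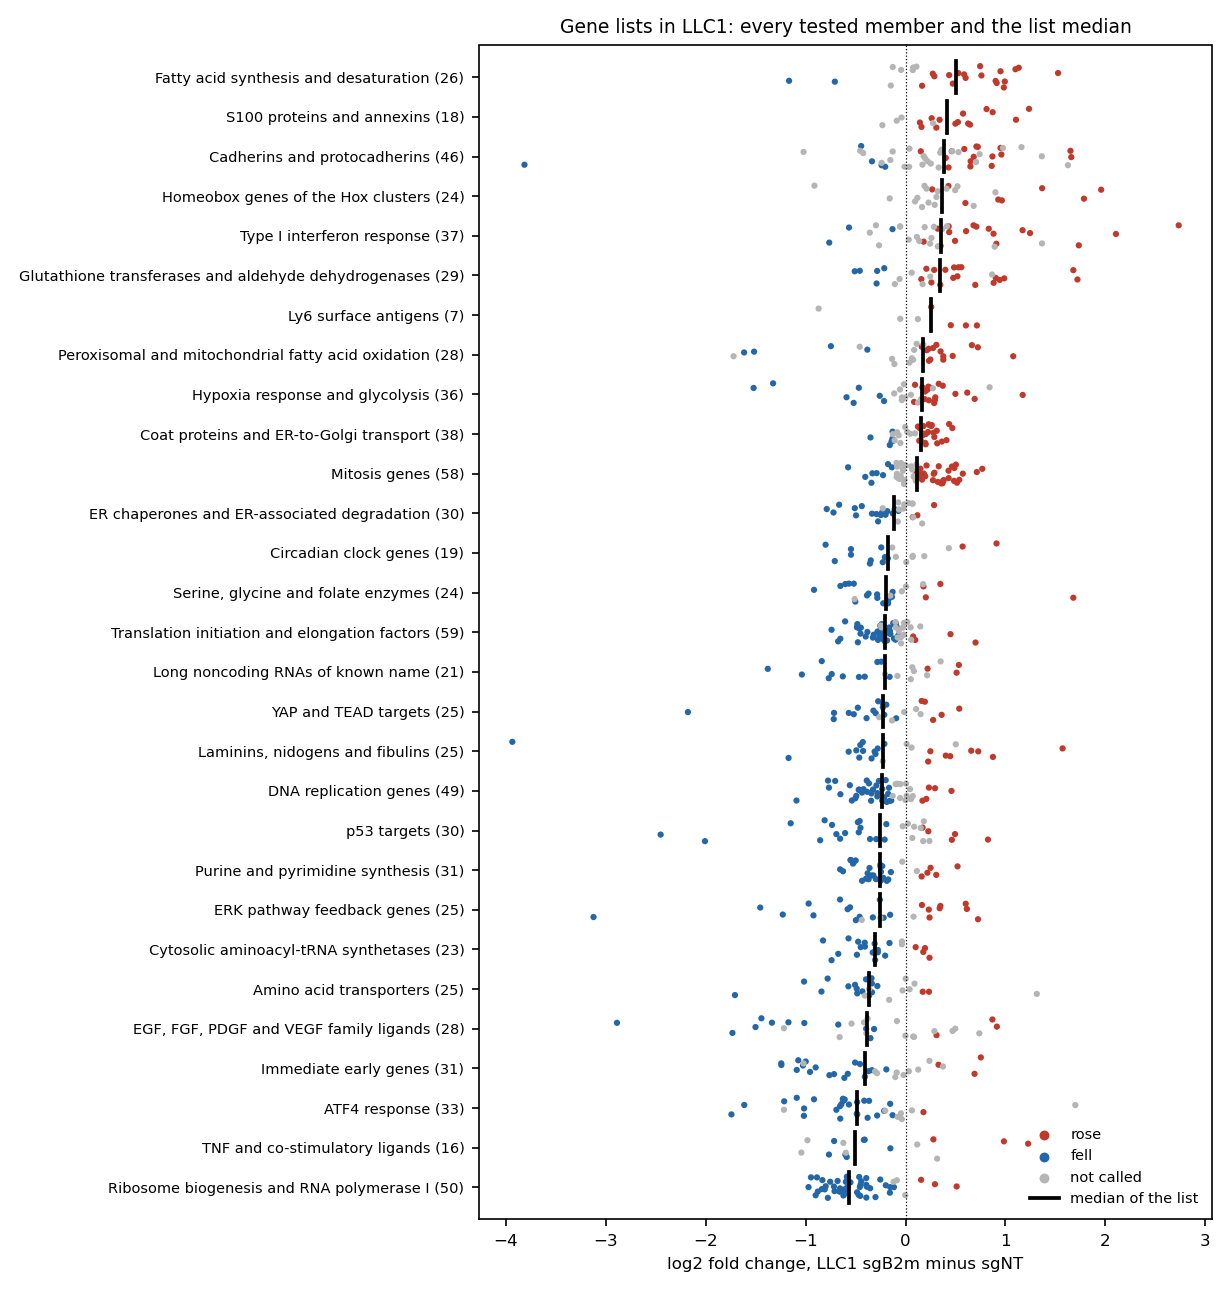
Log2 fold change (sgB2m minus sgNT) of every tested member of 29 gene lists, ordered by the list median (black bar), with the number of tested members in brackets. Red marks members that rose, blue members that fell and grey members not called. Ribosome biogenesis has the lowest median and fatty acid synthesis the highest; cholesterol synthesis, with a median of 1.44, is left out so that the axis can be read.

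Col3a1, the chain of type III collagen, had 72611, 73442 and 71767 normalised counts in the sgB2m libraries, against 29176, 30143 and 29806 in the sgNT libraries (1.29 ± 0.021, adjusted p = 1.8e-14), but of 24 collagen genes 6 rose and 4 fell, near the 20.7% and 21.8% of all tested genes. Among proteoglycans and hyaluronan genes 7 of 24 rose and 6 fell, which is also near those shares, and 5 of the rises were of at least 2-fold. These were Aspn, Omd, Ogn, Prelp and Lum, all small leucine-rich proteoglycans and picked as a group after their values were seen. Ogn, osteoglycin, had 4917, 4908 and 4564 normalised counts in the sgB2m libraries, against 1781, 1909 and 1838 in the sgNT libraries (1.38 ± 0.045, adjusted p = 1.65e-11). Omd, osteomodulin, had 18.8, 19.7 and 26.8 normalised counts in the sgB2m libraries, against 4.06, 6.92 and 3.15 in the sgNT libraries (2.03 ± 0.49, adjusted p = 0.00357), and its value was 1.23 with a pseudocount of 8. Aspn, Omd and Ogn are neighbours on the plus strand of chromosome 13, with starts at 49544443, 49582462 and 49608046 on GRCm38. Ecm2, which starts just before them at 49504810, overlapped between the groups and was not called, with 18.8, 23.6 and 36.4 normalised counts in the sgB2m libraries, against 20.3, 18.8 and 28.4 in the sgNT libraries (0.19 ± 0.36, adjusted p = 0.712). Fmod, fibromodulin, of the same family, fell (-1.45 ± 0.49, adjusted p = 0.0282) and lost its call without sgB2m replicate 3 (0.0682). Prelp (1.36 ± 0.19) and the fibroblast marker Lum (1.34 ± 0.26) rose (adjusted p at most 8.24e-04). Of the laminins, nidogens and fibulins 13 of 25 fell and 8 rose, with a median of -0.23. Efemp1, a fibulin, had 2575, 2314 and 2324 normalised counts in the sgB2m libraries, against 823, 858 and 744 in the sgNT libraries (1.57 ± 0.065). Sparc, a collagen-binding protein, had 5420.2, 5575 and 5569.6 normalised counts in the sgB2m libraries, against 2908, 3127 and 3000.5 in the sgNT libraries (0.87 ± 0.038). Emilin1, of elastic fibres, rose too (0.73 ± 0.066), whereas the laminin chain Lama3 of epithelial basement membranes fell (-1.17 ± 0.12), with adjusted p of at most 3.16e-06 for the 4.

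Among fibroblast markers more rose than fell. Of the 12 tested 6 rose and 1 fell, with a median of 0.52 and the sums given above. That median was 0.30 without sgNT replicate 1. The receptor Pdgfra had 1403, 1416 and 1281 normalised counts in the sgB2m libraries, against 663, 774 and 757 in the sgNT libraries (0.90 ± 0.072, adjusted p = 1.89e-07). Acta2, the smooth muscle actin of contractile fibroblasts, fell, with 1029, 1055 and 1070.5 normalised counts in the sgB2m libraries, against 2027, 2047 and 2023 in the sgNT libraries (-0.95 ± 0.049, adjusted p = 2.51e-09). Col1a1 (0.19 ± 0.34, adjusted p = 0.687) was not called and was weakly expressed, with 29.5 ± 11.2 normalised counts in sgB2m and 24.7 ± 3.44 in sgNT (SD, n = 3). The part of a changed cell mixture in these results was not tested. Among matrix metalloproteinases and their inhibitors 4 of 11 fell and 1 rose. Besides Mmp13 and Mmp3, the inhibitor Timp3 fell, with 0, 0 and 2.87 normalised counts in the sgB2m libraries, against 35.6, 24.7 and 30.5 in the sgNT libraries (-4.30 ± 0.67, adjusted p = 1.18e-04), on 3 remaining reads. The value of Timp3 was -2.10 with a pseudocount of 8 and -4.95 without sgB2m replicate 3.

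The S100 proteins and annexins, calcium-binding proteins of membranes and the cytoskeleton, rose without a falling member. Of 18 tested 14 rose, with a median of 0.42. S100a6 had 13359, 12835 and 13812 normalised counts in the sgB2m libraries, against 7705, 7734 and 7357 in the sgNT libraries (0.81 ± 0.034). S100a4, known from motile tumour cells, had 13029, 14169 and 13605 normalised counts in the sgB2m libraries, against 7729.6, 7381 and 7181 in the sgNT libraries (0.87 ± 0.036). In both genes the groups were well separated. S100a11 had 5271, 4901 and 5029 normalised counts in the sgB2m libraries, against 2611, 2301 and 2168 in the sgNT libraries (1.11 ± 0.058). Anxa6, a membrane-binding annexin, had 606, 542 and 595 normalised counts in the sgB2m libraries, against 255, 244 and 239 in the sgNT libraries (1.24 ± 0.092). The adjusted p of these 4 was at most 1.03e-07. The actin-severing protein gelsolin, Gsn, also rose (0.87 ± 0.027, adjusted p = 1.25e-11). Of 7 Ly6 surface antigens 4 rose and 0 fell. The progenitor antigen Ly6a had 1461, 1307 and 1369 normalised counts in the sgB2m libraries, against 938, 839 and 751 in the sgNT libraries (0.71 ± 0.078). Ly6c1 (0.45 ± 0.04) and Ly6e (0.26 ± 0.03) rose as well (adjusted p at most 8.03e-06 for the 3). Ly6c2 (0.60 ± 0.21, adjusted p = 0.0282) lost its call without sgB2m replicate 2, sgB2m replicate 3, sgNT replicate 1 or sgNT replicate 2, with adjusted p of 0.0536 to 0.0931. It is near-identical to Ly6c1, so that their reads can be confused.

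Some weakly expressed genes of clustered families rose. Of the homeobox genes of the Hox clusters 8 of 24 rose and 0 fell, with a median of 0.37. These transcription factors set position along the body axis. The shares over all tested genes were 20.7% that rose and 21.8% that fell. Of the 24 Hox genes 10 averaged 6 or more (log2), and the filter can be met by the libraries of either group alone. Hoxb7 had 47.6, 63 and 68.9 normalised counts in the sgB2m libraries, against 7.11, 18.8 and 22.1 in the sgNT libraries (1.96 ± 0.39). Hoxb13 had 54.5, 36.4 and 59.3 normalised counts in the sgB2m libraries, against 8.13, 17.8 and 16.8 in the sgNT libraries (1.79 ± 0.37). Hoxb4 had 82.3, 94.5 and 111 normalised counts in the sgB2m libraries, against 26.4, 55.3 and 32.6 in the sgNT libraries (1.37 ± 0.27). The groups did not overlap in any of these 3, all on chromosome 11 (adjusted p at most 0.00127). Hoxd3, on chromosome 2 (0.96 ± 0.32, adjusted p = 0.0242), lost its call without sgB2m replicate 1 (0.0743), sgB2m replicate 2 (0.0579) or sgNT replicate 1 (0.0776). The cadherins and protocadherins are adhesion molecules, of which most here come from the clusters on chromosome 18. Of 46 tested 16 rose (34.8%) and 5 fell (10.9%), with a median of 0.38. The beta-cluster gene Pcdhb21 had 469.9, 491 and 494 normalised counts in the sgB2m libraries, against 303, 210.4 and 242 in the sgNT libraries (0.96 ± 0.12). Its neighbour Pcdhb22 had 405, 357 and 399 normalised counts in the sgB2m libraries, against 205, 189.7 and 242 in the sgNT libraries (0.87 ± 0.12). The variable-exon gene Pcdhga2 also rose (1.66 ± 0.34), with adjusted p of at most 0.00123 for the 3. Genes of the alpha and gamma clusters share exons, which leaves it uncertain to which member a read belongs. The classical cadherin Cdh6 (0.95 ± 0.30, adjusted p = 0.0192) lost its call without the filter (0.0587) and without sgB2m replicate 2, sgB2m replicate 3, sgNT replicate 1 or sgNT replicate 2 (0.0578 to 0.0657).

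Of the type I interferon response 17 of 37 rose and 3 fell, with a median of 0.35. Stat2, the factor that carries the type I signal to DNA, had 1082, 977 and 1066 normalised counts in the sgB2m libraries, against 460.2, 462 and 395 in the sgNT libraries (1.25 ± 0.082, adjusted p = 2.57e-08). Ifit3, a binding partner of the RNA-binding Ifit1, had 186, 163 and 143 normalised counts in the sgB2m libraries, against 36.6, 51.4 and 27.3 in the sgNT libraries (2.11 ± 0.24, adjusted p = 5.38e-06). Its relative Ifit3b also rose, and has an upstream window with the same letters as the one shown for Ifit3 below. Whether reads were confused between these copies was not tested. Ifit1 was weakly expressed (1.73 ± 0.47, adjusted p = 0.00859) and lost its call without the filter (0.0781) and without the trend (0.0774). Its value was 2.34 without sgNT replicate 3. The regulator Irf7 rose (1.17 ± 0.32, adjusted p = 0.00808) and lost its call without sgB2m replicate 2 (0.0524). The ubiquitin-like Isg15 overlapped between the groups and was not called, with 32.7, 39.4 and 31.6 normalised counts in the sgB2m libraries, against 49.8, 50.4 and 30.5 in the sgNT libraries (-0.30 ± 0.29, adjusted p = 0.438). Among GTPases and regulators of the interferon-gamma response 6 of 20 fell and 3 rose, against 21.8% and 20.7% of all tested genes. Of these falls 4 were of at least 2-fold, a size of fall called in 2.05% of all genes. The guanylate-binding protein Gbp4 had 14.9, 5.9 and 21 normalised counts in the sgB2m libraries, against 52.8, 51.4 and 77.8 in the sgNT libraries (-2.17 ± 0.41, adjusted p = 6.13e-04), a gene picked after its values were seen whose locus overlaps that of Gbp8. Of the TNF and co-stimulatory ligands 7 of 16 fell and 3 rose, with a median of -0.50, and of -0.32 without sgNT replicate 1. Tnfsf11, the osteoclast factor RANKL, had 170.5, 108 and 123 normalised counts in the sgB2m libraries, against 50.8, 63.2 and 53.6 in the sgNT libraries (1.23 ± 0.21). The lectin Lgals9 rose (0.98 ± 0.076) and the ICOS ligand Icosl fell (-0.72 ± 0.15), with adjusted p of at most 0.0011 for the 3. Tnfsf9, the 4-1BB ligand, fell (-0.77 ± 0.23, adjusted p = 0.0141) and lost its call without sgNT replicate 1 (0.0721) or sgNT replicate 2 (0.0586).

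Upstream windows of Ifit3, Ifit1 and Stat2 are shown because they hold the interferon-stimulated element, a pair of GAAA runs with 2 free bases between them and a motif added after the data were seen. They are from RefSeq on GRCm38.p6, plus strand, at chr19:34583362-34583461, chr19:34640759-34640858 and chr10:128270248-128270347, and the capitals mark matches, here in their reverse complement.
Ifit3: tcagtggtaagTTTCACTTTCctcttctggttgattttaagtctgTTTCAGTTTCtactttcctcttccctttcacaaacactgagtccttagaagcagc
Ifit1: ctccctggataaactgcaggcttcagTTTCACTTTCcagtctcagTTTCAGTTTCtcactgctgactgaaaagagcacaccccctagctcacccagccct
Stat2: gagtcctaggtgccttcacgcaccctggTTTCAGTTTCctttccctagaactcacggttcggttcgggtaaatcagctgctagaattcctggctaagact
The element was in 41.2% of 34 windows of the type I interferon list, 3.44% of all promoter windows and 3.03% of those of tested genes. It was in 2.85% of the windows of genes that rose and in 3.43% of those of genes that fell.

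Among abundant genes not yet named, the membrane protein Serinc3 had 24417, 25413 and 23946 normalised counts in the sgB2m libraries, against 14281, 14542 and 14359 in the sgNT libraries (0.77 ± 0.027). The phosphatase Ctdsp2 rose as well (0.58 ± 0.032), with adjusted p of at most 4.39e-09 for both. Hmga1, a DNA-bending chromatin protein, had 12139, 12540.4 and 13591 normalised counts in the sgB2m libraries, against 28329, 29104 and 26947 in the sgNT libraries (-1.14 ± 0.039). Txnip, which binds thioredoxin and limits glucose uptake, had 18377, 18181 and 17714 normalised counts in the sgB2m libraries, against 35487, 36995 and 36862 in the sgNT libraries (-1.01 ± 0.025). All sgB2m libraries of both genes lay far below the sgNT libraries. The mitochondrial chaperone Hspa9 (-0.61 ± 0.023) and the histone chaperone Set (-0.58 ± 0.025) also fell, with adjusted p of at most 3.05e-10 for the 4.

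The changes varied with the chromosome. The median log2 fold change was 0.13 for the 519 tested genes of chromosome 14 and 0.12 for the 1004 of chromosome 5, of which 30.8% and 30.2% rose. It was -0.10 for the 806 genes of chromosome 17 and -0.075 for the 612 of chromosome 15, of which 31.3% and 31.5% fell. All other chromosomes lay between -0.053 and 0.08. Genes described here on chromosome 17 include Hmga1, Rps10, Wdr43 and Vars, and Myc is on chromosome 15. The part of the chromosome in their changes was not tested. Without the genes of chromosome 14 a total of 6272 genes were called, and without those of chromosome 17 a total of 6162, against 6503 in all.

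The change in LLC1 was set against the mean change in MC38, AKR and Hepa1-6, colon, esophageal and liver tumour lines given the same guides. Over 12674 genes tested in all 4 lines, limma's moderated test of that difference in a model of 24 libraries called 41.3% of them, 19.9% as higher in LLC1 and 21.4% as lower. Ribosome biogenesis differed in most members, as 37 of 50 were lower in LLC1 and 3 were higher. Its median log2 fold change was -0.57 in LLC1, -0.16 in MC38, -0.15 in AKR and -0.13 in Hepa1-6. Ncl, nucleolin, differed by -0.75 ± 0.033 on the log2 scale (adjusted p = 2.38e-14), with log2 fold changes of -0.88 in LLC1, 0.19 in MC38, -0.40 in AKR and -0.18 in Hepa1-6. The S100 proteins and annexins were higher in LLC1 in 14 of 17 genes and lower in 0. Their median was 0.50 in LLC1, -0.16 in MC38, 0.25 in AKR and -0.026 in Hepa1-6. Fatty acid synthesis genes were higher in 20 of 26 and coat and ER-to-Golgi genes in 25 of 38. Mitosis genes were higher in 32 of 58, and hypoxia and glycolysis genes in 23 of 32. These differences include falls in other lines. The median for fatty acid synthesis was 0.50 in LLC1, 0.058 in MC38, -0.10 in AKR and -0.17 in Hepa1-6. In the same order of lines it was 0.16, -0.088, -0.097 and -0.026 for coats and transport. For mitosis it was 0.11, 0.024, 0.012 and -0.17, and for hypoxia and glycolysis 0.18, -0.28, -0.079 and -0.097. Mki67 differed by 0.94 ± 0.078 (adjusted p = 1.31e-09), with 0.77 in LLC1, 0.33 in MC38, -0.35 in AKR and -0.49 in Hepa1-6.

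Among the lists that fell in LLC1, 25 of 29 genes of the ATF4 response, 24 of 29 immediate early genes and 20 of 30 p53 targets were lower in LLC1 than in the other lines on average. Purine and pyrimidine synthesis was lower in 21 of 31 genes, with medians of -0.25 in LLC1, -0.05 in MC38, 0.032 in AKR and -0.18 in Hepa1-6. The aminoacyl-tRNA synthetases were lower in 16 of 23, with medians of -0.30 in LLC1, -0.14 in MC38, -0.23 in AKR and 0.069 in Hepa1-6. The other lines differed among themselves. Of the ATF4 response genes 25 of 29 fell in LLC1 and 27 in AKR, with medians of -0.57 in LLC1 and -0.41 in AKR, against 0.14 in MC38 and 0.39 in Hepa1-6. Immediate early genes had a median of -0.15 in AKR and p53 targets one of 0.44. Amino acid transporters had a median of -0.35 in LLC1 and -0.34 in AKR, against 0.13 in MC38 and 0.13 in Hepa1-6. Myc had a log2 fold change of -1.24 in LLC1 and -1.16 in AKR, against 0.017 in MC38 and 1.10 in Hepa1-6. The median of the DNA replication genes was -0.23 in LLC1 and -0.24 in Hepa1-6, and 20 of 49 were lower in LLC1. Immediate early genes had a median of -0.46 in LLC1 and 0.74 in Hepa1-6, and YAP and TEAD targets one of -0.22 in LLC1 and 0.51 in Hepa1-6. In the type I interferon list 11 of 36 were higher in LLC1 and 7 lower, with medians of 0.34 in LLC1 and 0.62 in MC38. The interferon-gamma GTPases and regulators were lower in LLC1 in 12 of 20 genes and higher in 2. Their median was -0.13 in LLC1, 0.29 in MC38, 0.44 in AKR and 0.49 in Hepa1-6. The tables of the lines were normalised separately, so each difference is one of changes within a line and not of levels.

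**Figure D5:**
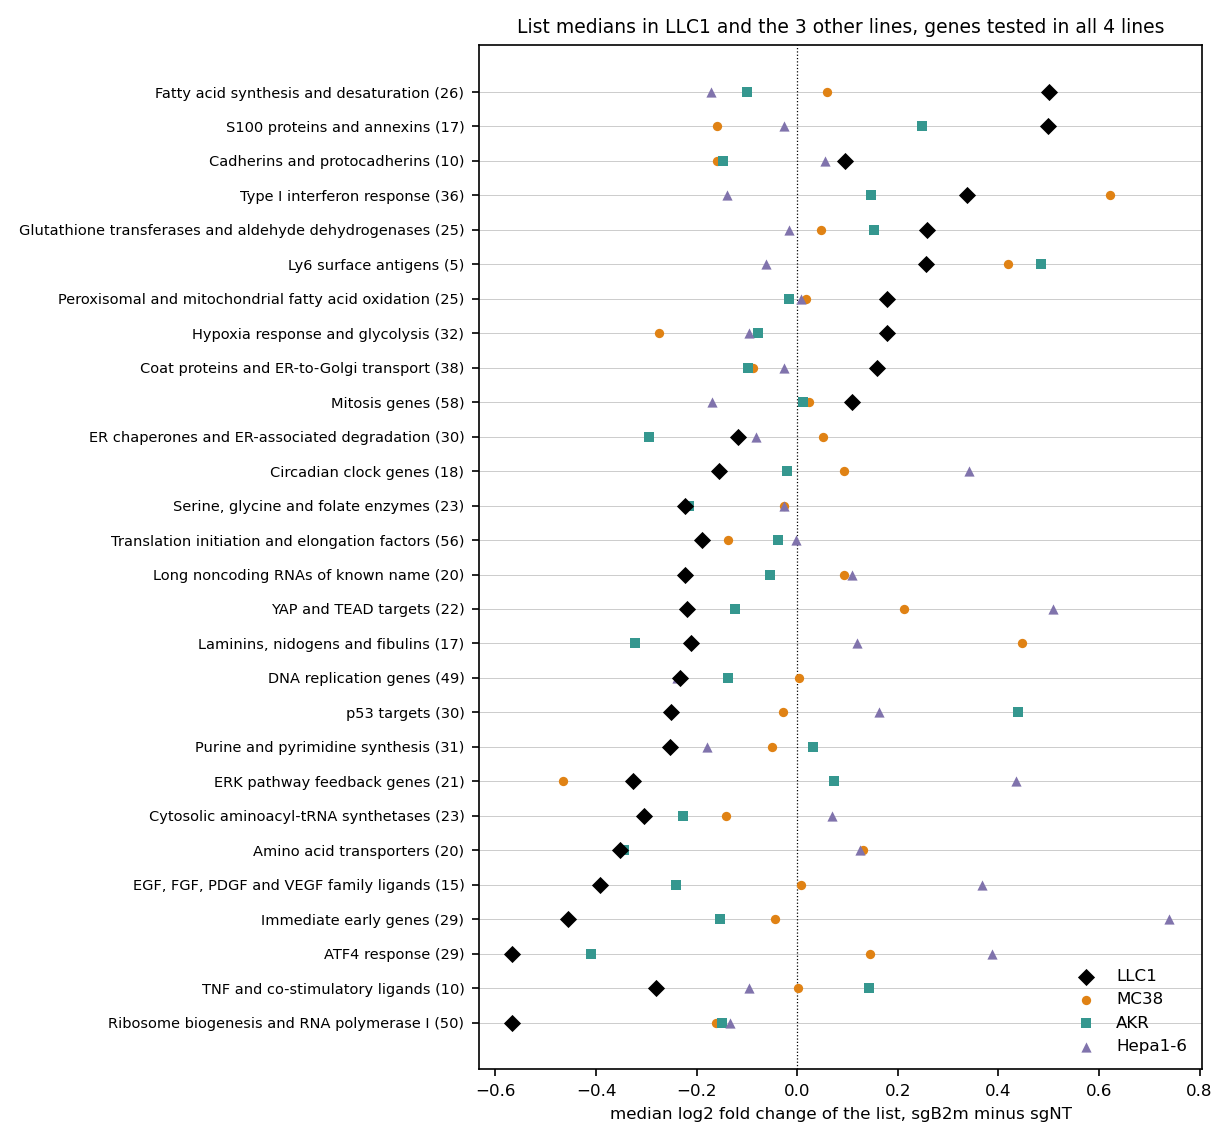
Median log2 fold change (sgB2m minus sgNT) of each list in LLC1 (black diamonds), MC38, AKR and Hepa1-6 over the genes tested in all 4 lines, whose number is in brackets; lists with under 5 such genes and cholesterol synthesis are left out. LLC1 stands apart from the 3 others for ribosome biogenesis and fatty acid synthesis and lies beside another line for amino acid transporters and DNA replication.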

How the data were processed

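RNA of 4 lines was sequenced in 24 libraries, of which 6 were compared here. STAR, DESeq2 and FastQC 0.11.5 are named in the submitters' processing notes, with the genome build mm10; the gene counter, annotation and strand setting of the counting are not given in the sources used here, so reads of overlapping or antisense genes cannot be told apart. The authors deposited log2 values, 1 table per line. These are log2 of the size-factor normalised count plus 1: 100% of the LLC1 values corresponded to whole reads within 0.05 reads. No sample columns of other series were present. Because the unit is log2, limma 3.58.1 in R 4.3.3 (linear model with intensity trend, Benjamini-Hochberg adjustment over all 15323 genes) was the test, after a filter of 3.5 in at least 3 libraries. It was checked on simulated data, which had the same setting of spread for every gene and changes in few genes, unlike these data. The largest changes were named among called genes with no overlap, a mean log2 of at least 6 in the higher group (5 for list members, up to 4 per list) and a symbol other than a clone name or predicted gene; genes without a symbol were left out of naming. Genes shown for a promoter, and others said to be so, were picked after their values were seen. The members and gene lists were chosen with earlier results of these data known. Lists are described where at least 5 members were tested and at least 50% were called in a direction or the median was at least 0.3 in size; of 97 function lists 30 met this, and the other 67 had medians between -0.292 and 0.288. Some of these are given beside the described lists, picked after their values were seen. Positions come from GENCODE M21 and promoters from RefSeq, which gave windows for 10002 of the tested genes. Alternatives numbered 16 for LLC1 and 13 for the difference between lines.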

Additional observations from a re-analysis of the deposited data

Results flagged for a closer look

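The change in LLC1 differed from the mean change of MC38, AKR and Hepa1-6 in 5235 of 12674 genes (41.3%) by limma's moderated test of the difference with Benjamini-Hochberg adjustment. The genes below had the largest differences, in log2 units, among those also called in LLC1, and were picked out because their change differed between the lines. Rn7s2 (2.53) and Rn7s1 (2.52), near-identical signal recognition particle RNAs, were higher in LLC1. The calmodulin kinase subunit Camk2b differed by 2.12, with changes of 1.74 in LLC1, -0.24 in MC38, -0.22 in AKR and -0.69 in Hepa1-6. The cholesterol synthesis enzymes Hmgcs1 (2.03), Lss (1.98) and Acat2 (1.88) were higher, and so were Hacd4 (1.94), which acts in the elongation of very long fatty acids, and Hexim2 (1.88), an inhibitor of the elongation kinase P-TEFb. Hmgcs1 changed by 2.05 in LLC1, 0.18 in MC38, 0.76 in AKR and -0.88 in Hepa1-6.

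In the other direction, Lcn2, an iron-siderophore binding protein, differed by -3.70, with changes of -1.14 in LLC1, 4.21 in MC38, -1.05 in AKR and 4.52 in Hepa1-6. The neutrophil chemokine Cxcl5 differed by -3.63, with -0.55 in LLC1, 6.88 in MC38, -0.66 in AKR and 3.01 in Hepa1-6. For both, the difference came with rises in MC38 and Hepa1-6, while the value in AKR was close to that in LLC1. The change of Cxcl5 in AKR was not called. Ptgfrn differed by -3.56, with -3.53 in LLC1, 0.14 in MC38, 0.16 in AKR and -0.21 in Hepa1-6. The actin-binding Shroom3 differed by -3.52, with -1.78 in LLC1, 3.28 in MC38, 1.79 in AKR and 0.15 in Hepa1-6. The interleukin receptor subunit Il13ra1 differed by -3.24, with -1.71 in LLC1, 3.36 in MC38, -0.061 in AKR and 1.31 in Hepa1-6. Vopp1 differed by -3.42, with -3.32 in LLC1, -0.17 in MC38, 0.35 in AKR and 0.11 in Hepa1-6. The receptor Eda2r differed by -3.09 and the interferon-inducible Ifi207 by -3.08, the change of Ifi207 being -0.97 in LLC1, 2.60 in MC38, 1.50 in AKR and 2.24 in Hepa1-6. All 17 results kept their direction and side of the threshold under every alternative that could be run.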

How the results depend on the processing

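The number of called genes was 6503, and lay between 5311 (without the intensity trend) and 6538 (pseudocount of 8) in the runs with all libraries. It was 5570 without the filter on low values and 6494 by limma-voom on the recovered reads, a run added after seeing the data. Leaving out 1 library at a time gave 5623 to 6163 called genes, 2743 to 2978 that rose, 2802 to 3185 that fell, and 556 to 612 with at least a 2-fold change. Rises of at least 2-fold then numbered 276 to 334 and falls of that size 225 to 330. With a stricter filter of 5, falls of at least 2-fold numbered 209, against 314, since fewer genes were tested. The difference between the lines was called in 4709 to 4864 genes with a library left out and 5090 to 5302 otherwise. With the replicate number as a block, 6306 genes were called in LLC1 and 5097 in the comparison of lines. Deviations of libraries with the same number correlated at 0.0234, 0.051 and 0.0276 over genes. These values are small and the main fit was not paired, although every library correlated best with its own number. The second principal component held 13.7% of the variance. Replicate 3 was negative on it in both groups (-30.2 in sgB2m and -15.7 in sgNT), and replicates 1 and 2 were positive in both. Of 199 genes followed singly, 181 kept direction and side of the threshold under every alternative run. With 1 library left out, the log2 fold change of Col1a1 lay between -0.086 (without sgB2m replicate 3) and 0.41, and that of Ecm2 between -0.066 (without sgB2m replicate 3) and 0.39, never called; the cause was not tested. For the described lists and the fibroblast markers, the median kept its direction under all 16 alternatives; the medians of other lists were not recomputed. The effect of depth was not tested.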
